A study of Mus musculus with 8 samples.

Results

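The genes described here are p53 and 9 of its best known transcriptional targets: Cdkn1a, Mdm2, Ccng1, Zmat3, Phlda3, Trp53inp1, Aen, Bbc3 and Pmaip1. They were chosen by name, though with earlier results of these data already known. Of the 10 genes, 9 were found among the 19505 named genes of the array table, each by 1 row. The p53 gene itself, Trp53, was not analysed here.

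Messenger RNA was measured on 8 microarrays of leukaemia stem cells from mice. Sorting took GFP-positive cells with the markers of granulocyte-macrophage progenitors (GMPs) from the marrow of transplanted recipients, whose leukaemia was driven by the MLL-AF9 fusion oncogene. The KO group held 3 arrays of the genotype Pik3ca-/-, which lacks the p110-alpha subunit of phosphoinositide 3-kinase (PI3K), and the WT group held 5 arrays with Pik3ca intact. Both groups carried MLL-AF9 and GFP. The labels name neither the ages of the mice nor the way Pik3ca was deleted, nor whether each array stands for its own mouse. The p-values therefore speak of the spread among these 8 samples, which may be technical. The comparison addresses what loss of p110-alpha does to expression in these leukaemia stem cells.

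p53 is a transcription factor that MDM2 keeps scarce by tagging it for degradation. DNA damage, oncogene activity or ribosomal stress frees p53 from MDM2, and p53 then binds its response elements and turns on genes that halt the cell cycle, repair DNA or kill the cell, together with Mdm2, which closes a feedback loop. AKT, the main kinase downstream of PI3K, phosphorylates MDM2 and favours its entry into the nucleus, which links the PI3K pathway to p53. MLL-rearranged leukaemias often keep an intact p53 gene, and myeloid progenitors are sensitive to p53-driven apoptosis.

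Matches to the binding site are shown first because p53 acts on its direct targets through response elements. The p53 consensus consists of 2 adjacent copies of a 10-base half-site that reads the same on both strands. Promoter windows from RefSeq (GRCm38.p6), running from 250 bases before to 50 bases after a transcription start, were listed for 6 of the 9 genes. Some had several starts, and the 6 genes had 10 windows. The counts below are by gene and the shares beside them by window, so they are not directly comparable. An exact half-site lay in a window of 4 of these 6 genes, Cdkn1a, Ccng1, Mdm2 and Aen, against 8.36% of all 32851 windows. A 20-base site with up to 3 mismatches was present in Cdkn1a, Ccng1, Aen and Bbc3, against 6.29% of all windows. With up to 1 mismatch it was present in Cdkn1a and Ccng1, against 0.0883% of all windows, or 29 in number. The Phlda3 window held no such match at these settings. In the sequences that follow, printed 5′ to 3′ on the gene's strand, capitals mark the 20-base site, or for Mdm2 the single half-site.
Cdkn1a, chr17:29090893-29090978, plus strand: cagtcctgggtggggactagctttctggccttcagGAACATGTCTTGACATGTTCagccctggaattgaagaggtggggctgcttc
Ccng1, chr11:40755427-40755516, minus strand: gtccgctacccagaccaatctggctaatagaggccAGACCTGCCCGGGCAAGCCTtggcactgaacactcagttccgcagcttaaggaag
Mdm2, chr10:117710900-117710979, minus strand: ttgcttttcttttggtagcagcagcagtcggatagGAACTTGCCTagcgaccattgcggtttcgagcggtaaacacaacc
Aen, chr7:78895937-78895956, plus strand: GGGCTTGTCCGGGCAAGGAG
Bbc3, chr7:16309486-16309505, plus strand: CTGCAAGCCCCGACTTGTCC
The Cdkn1a site begins 51 bases before the upstream of the listed starts, and a further exact half-site lies upstream of it in the printed stretch. The site begins 195 bases before the start in Ccng1, 97 bases before the first listed start in Bbc3, and 121 bases before the second listed start in Aen, whose first start lies upstream of the site. The Mdm2 half-site begins 186 bases before its start. A match of letters describes these windows only and does not show binding.

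Array medians lay between 5.26 and 5.51 on the log2 scale. WT array 3 stood apart, with a mean correlation to the other arrays of 0.921 against 0.968 to 0.972 for the other 7. The differences of the 9 p53 targets and of the genes named from the pathway lists are therefore also given without it. Pik3ca itself was 9.15 on average in KO and 9.31 in WT, and the groups overlapped only through WT array 3 at 8.41 (difference -0.16, exact two-sided permutation p = 0.661). With that array left out, all 3 KO arrays, at 8.73 to 9.40, lay below the other WT arrays, at 9.48 to 9.58 (difference -0.39, exact two-sided permutation p = 0.0286, the smallest that 35 splits allow). Of all genes then tested, 5.53% had groups that did not overlap. Since the deleted part of Pik3ca is not named, its probes do not check the genotype. For the labelled cell type 9 markers of GMPs and primary granules were read. All of them lay above the array median on all 8 arrays, with myeloperoxidase (Mpo) between 17.1 and 17.5. Of these, Cd34 varied most, from 5.63 to 7.81 in KO and from 7.24 to 10.94 in WT, a difference of -2.001 (limma unadjusted p = 0.0368, adjusted p = 0.998), or -1.50 without WT array 3. Of 6 genes of maturing neutrophils 5 lay above the array median on all arrays, and Retnlg ran from 4.65 in KO array 1 to 10.49 in WT array 3. Among them Ngp, at 17.9 to 18.2, was above Mpo on every array. Of 5 measured monocyte and macrophage genes 4 also lay above the array median on all arrays. A position above the median thus does not tell GMPs from maturing cells. The B cell genes Cd79a, Ms4a1 and Pax5 and the T and NK cell genes Cd3e, Cd3g, Cd8a and Ncr1 lay below the array median on all arrays, while Cd79b, at 7.504 to 9.21, and Cd4, at 6.35 to 7.72, lay above it on all arrays. The platelet genes Pf4 and Ppbp reached 12.4 and 12.8 in WT array 1. The mean level of 6 mast cell, basophil and eosinophil genes was 6.37 to 6.50 in KO and 6.65 to 7.37 in WT. The WT range was the same when WT array 3 was left out. Of the 6 genes, 3 lay above the array median on all arrays and 2 on none. Prg2 varied most, from 6.22 to 8.53 in KO and from 7.14 to 12.84 in WT, and a mean without it was not taken. Differences were above 0 in 2 of the 6 genes and below 0 in 4. None of the 6 passed limma, and the part of these cells in the results was not tested.

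No p53 target differed between KO and WT beyond the spread of the arrays. Of the 9 genes, 5 (Cdkn1a, Mdm2, Ccng1, Aen and Pmaip1) were bright enough to be tested, which means above the array median on at least 3 arrays, and 4 (Zmat3, Phlda3, Trp53inp1 and Bbc3) were taken from a fit without that filter. In limma 0 of the 9 had an adjusted p under 0.05, 0 had an unadjusted p under 0.05, and 0 had an exact permutation p under 0.05, of which 0.0179 is the smallest that 56 splits allow. Over all 9920 genes tested, 0% passed at an adjusted p under 0.05 and 2.84% were at an unadjusted p under 0.05. Over the 19505 genes of the unfiltered fit these shares were 0% and 3.04%. In 0 of the 9 genes were the groups free of overlap, against 3.09% of the tested and 3.11% of the unfiltered genes. The difference KO minus WT was above 0 in 4 genes and below 0 in 5, with a median of -0.03, while 51.9% of the unfiltered genes were above 0. Of the 5 tested genes alone, 1 was above 0 and 4 below, with a median of -0.15, while 56% of all tested genes were above 0. For these 5 the counts without WT array 3 were 2 above 0 and 3 below, with a median of -0.18, against 49.9% above 0 of the genes then tested. Without WT array 3, 0 of the 9 passed at an adjusted or an unadjusted p under 0.05 in limma, against 0% and 4.65% of the genes then tested and 0% and 4.67% of the unfiltered genes. The groups still overlapped in all 9 genes, where 5.53% of the tested and 5.69% of the unfiltered genes had groups that did not, and 4 of the 9 differences were above 0, against 54.5% of the unfiltered genes. As RNA was taken from bulk sorted cells, fewer expressing cells and less RNA per cell cannot be told apart.

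**Figure D1:**
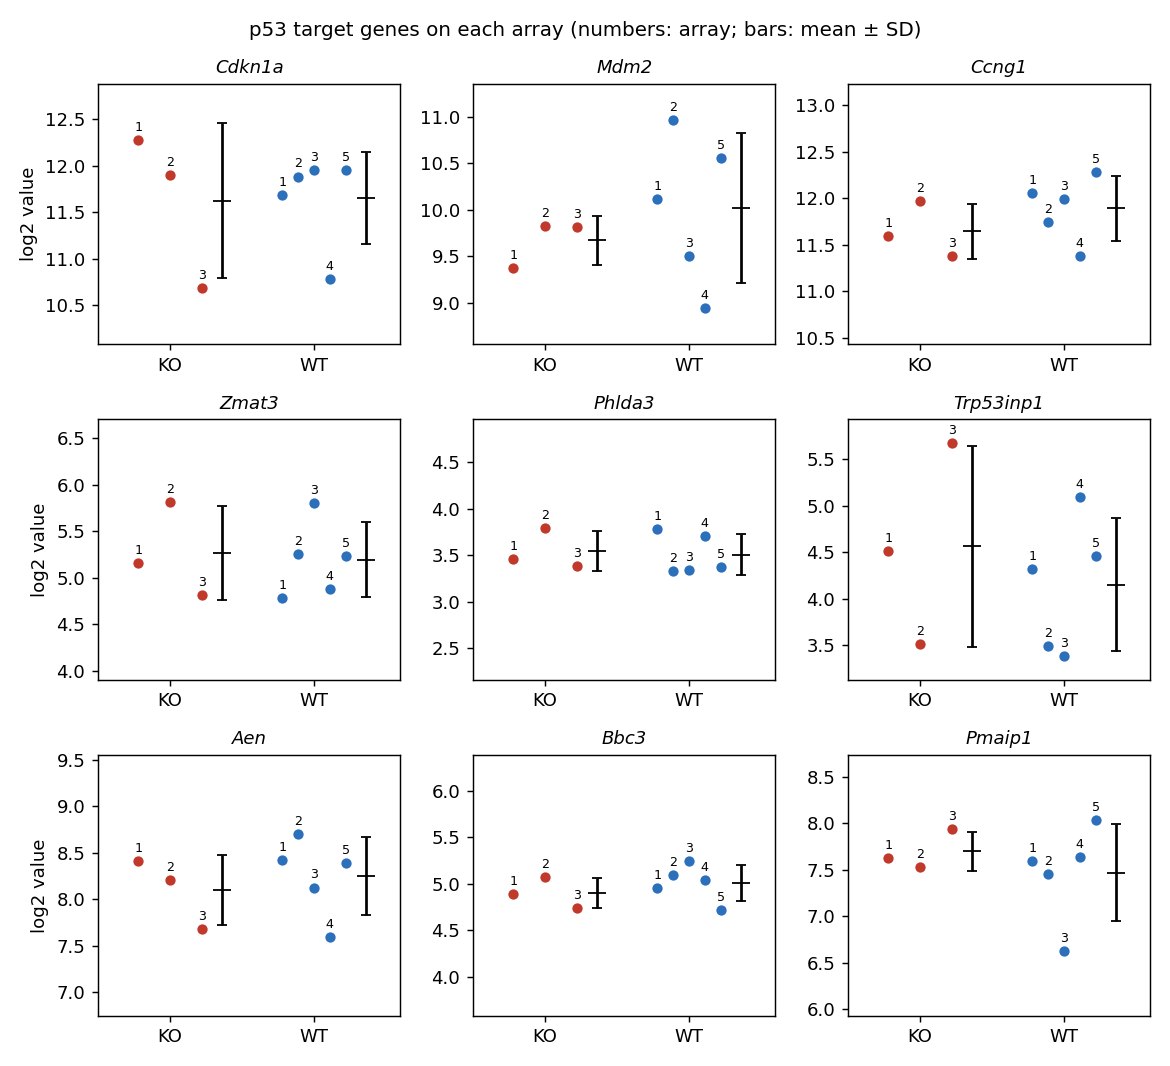
Log2 value of each p53 target gene (vertical axis, each panel spanning the same number of log2 units) on the 3 KO arrays (red) and the 5 WT arrays (blue), numbered by array, with the mean ± SD of each group beside the points. The groups overlap in all 9 panels, and in Cdkn1a and Aen KO array 3 and WT array 4 lie below the other arrays.

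Among the genes that halt the cell cycle, Cdkn1a encodes p21, the inhibitor of cyclin-dependent kinases through which p53 imposes arrest in G1. Its log2 value was 12.28, 11.90 and 10.69 in KO arrays 1 to 3 and 11.68, 11.89, 11.96, 10.78 and 11.96 in WT arrays 1 to 5. KO array 3 and WT array 4 were thus low, 1 in each group, and the other 6 arrays lay between 11.68 and 12.28. KO averaged 11.62 ± 0.83 (SD, n = 3) and WT averaged 11.65 ± 0.50 (SD, n = 5), a difference of -0.03 with a 95% confidence interval of -0.96 to 0.90 in limma (adjusted p = 0.998). On the linear scale this interval runs from 0.515-fold to 1.87-fold. The sign of the difference rested on single arrays: leaving out KO array 3 turned it to 0.44 and leaving out WT array 3 to 0.05, while KO array 1 left out gave -0.36.

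Ccng1 encodes cyclin G1, a p53-induced cyclin that recruits a phosphatase to MDM2. It was 11.59, 11.97 and 11.38 in KO arrays 1 to 3 and 12.06, 11.74, 11.99, 11.38 and 12.29 in WT arrays 1 to 5. The lowest arrays were again WT array 4 and KO array 3, and the groups overlapped over most of their range. The means were 11.65 ± 0.30 (SD, n = 3) and 11.89 ± 0.35 (SD, n = 5), with a difference of -0.24 and a 95% interval of -0.83 to 0.34 (limma adjusted p = 0.998). The difference was -0.22 without WT array 3. Leaving out KO array 3 moved it to -0.11, and leaving out KO array 2 moved it to -0.41.

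Of the genes that feed back on the pathway, Mdm2 encodes the ubiquitin ligase that limits p53. Its value was 9.37, 9.83 and 9.82 in KO arrays 1 to 3 and 10.12, 10.97, 9.51, 8.95 and 10.55 in WT arrays 1 to 5. The KO arrays sat close together inside the WT range, in which WT array 2 was highest and WT array 4 lowest. KO averaged 9.67 ± 0.26 (SD, n = 3) against 10.02 ± 0.81 (SD, n = 5) for WT. The difference of -0.35 had a 95% interval of -1.33 to 0.64, or 0.397-fold to 1.56-fold (limma adjusted p = 0.998, exact permutation p = 0.518). Single WT arrays moved it: it was -0.11 with array 2 left out, -0.21 with array 5 left out, -0.47 with array 3 left out and -0.61 with array 4 left out, and leaving out KO array 1 gave -0.19.

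Phlda3 encodes a small pleckstrin homology domain protein that competes with AKT for membrane phosphoinositides and so restrains AKT. It was dim on every array, above only 5.73% to 20.9% of the transcript rows. Its values were 3.46, 3.80 and 3.39 in KO arrays 1 to 3 and 3.79, 3.33, 3.34, 3.71 and 3.37 in WT arrays 1 to 5, all of them below the array medians. The groups overlapped, with a high pair of arrays in WT and a high array in KO. The difference was 0.04, with a 95% interval of -0.36 to 0.45, and -1.33e-05 without WT array 3.

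Zmat3 encodes a zinc finger RNA-binding protein that acts on splicing and is a tumour suppressor downstream of p53. It was 5.16, 5.82 and 4.82 in KO arrays 1 to 3 and 4.78, 5.26, 5.80, 4.88 and 5.23 in WT arrays 1 to 5, above the array median on 2 of the 8 arrays. KO array 2 and WT array 3 were highest, so that each group held a high array. The difference was 0.07 with a 95% interval of -0.59 to 0.74, and 0.23 without WT array 3.

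Trp53inp1 encodes a stress-induced protein that promotes p53 phosphorylation and takes part in autophagy. It had the widest spread of the 9 genes, at 4.51, 3.51 and 5.67 in KO arrays 1 to 3 and 4.31, 3.49, 3.38, 5.10 and 4.46 in WT arrays 1 to 5. The highest arrays were KO array 3 and WT array 4, those in which Cdkn1a was lowest, and the gene was above the array median on 1 array only. The difference of 0.42 had a 95% interval of -0.79 to 1.63 (adjusted p = 0.999 in the unfiltered limma fit). Leaving out KO array 3 gave -0.14, leaving out KO array 2 gave 0.94, and leaving out WT array 3 gave 0.23.

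**Figure D2:**
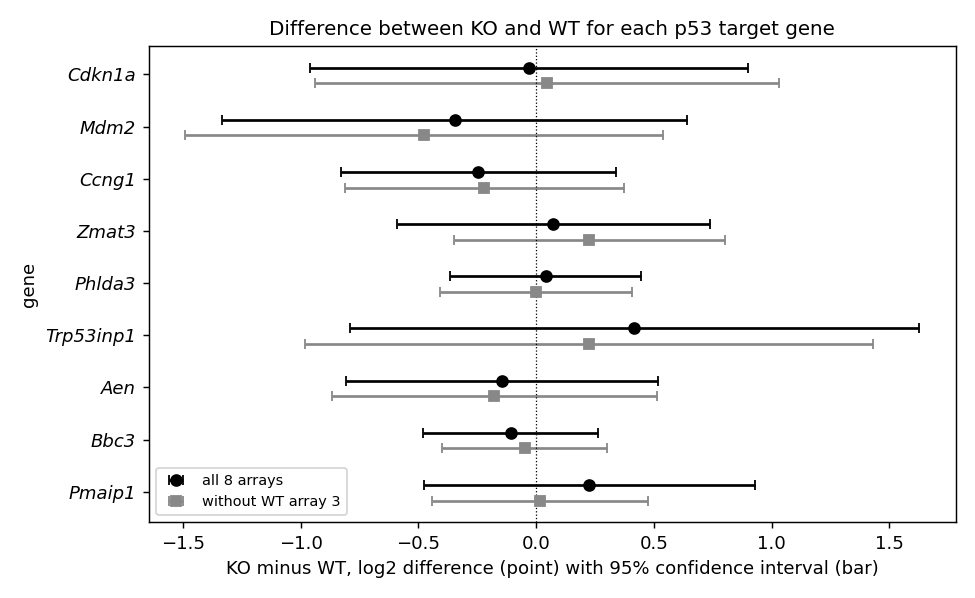
Difference KO minus WT on the log2 scale (horizontal axis) for each p53 target gene (vertical axis), with its 95% confidence interval from limma, from all 8 arrays (black circles) and without WT array 3 (grey squares). Every interval covers 0, and the widest, that of Trp53inp1, runs from -0.79 to 1.63 with all arrays.

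The remaining genes act in cell death. Aen encodes a nuclease that degrades DNA during apoptosis. It was 8.40, 8.21 and 7.68 in KO arrays 1 to 3 and 8.42, 8.70, 8.12, 7.59 and 8.39 in WT arrays 1 to 5. WT array 4 and KO array 3 were the lowest, as in Cdkn1a and Ccng1. The means were 8.10 ± 0.37 (SD, n = 3) and 8.25 ± 0.42 (SD, n = 5), with a difference of -0.15 and a 95% interval of -0.81 to 0.52 (limma adjusted p = 0.998). Leaving out KO array 3 gave 0.06 and leaving out WT array 4 gave -0.31, and it was -0.18 without WT array 3.

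Pmaip1 encodes NOXA, a BH3-only protein that neutralises MCL1. Its values were 7.63, 7.53 and 7.94 in KO arrays 1 to 3 and 7.60, 7.45, 6.63, 7.64 and 8.03 in WT arrays 1 to 5. WT array 3 was the lowest, and the other 7 arrays lay between 7.45 and 8.03. The difference was 0.23 with a 95% interval of -0.48 to 0.93 (limma adjusted p = 0.998, exact permutation p = 0.625). It was 0.02 without WT array 3, with a 95% interval of -0.44 to 0.47, and 0.11 without KO array 3.

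Bbc3 encodes PUMA, a BH3-only protein that binds every anti-apoptotic BCL2 protein. It was below the array median on all 8 arrays, at 4.89, 5.07 and 4.74 in KO arrays 1 to 3 and 4.95, 5.09, 5.25, 5.04 and 4.72 in WT arrays 1 to 5. The whole range over the arrays was 0.53 log2 units, and the groups overlapped. The difference was -0.11 with a 95% interval of -0.48 to 0.26, and -0.05 without WT array 3. With any 1 array left out it lay between -0.19 and -0.03.

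The genes did not move over the arrays as 1 block. Of 36 pairs, 20 had a Pearson correlation above 0 and 16 below, and 6 had an unadjusted permutation p under 0.05, the 8 pairs with Cdkn1a included. After Benjamini-Hochberg adjustment over the 36 pairs, 1 passed: Bbc3 and Pmaip1 ran opposite, with r = -0.895 over 8 arrays (exact permutation p = 0.000298, adjusted p = 0.0107) and Spearman's rho = -0.93 (exact permutation p = 0.00223, adjusted p = 0.0804). Leaving out WT array 5 and KO array 3, which lay farthest from the median of Bbc3, gave r = -0.85 (exact permutation p = 0.0125, adjusted p = 0.45). Leaving out WT array 3 gave r = -0.94 (exact permutation p = 0.00238, adjusted p = 0.0857). With 6 arrays a lone pair cannot reach an adjusted p below 0.1, and the 0.45 of this pair lay above that limit. Bbc3 sat under the array median on all 8 arrays, and the part of background signal in the relation was not tested.

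Cdkn1a split into a pair of low arrays, KO array 3 and WT array 4, and a group of 6, so no correlation over all arrays is given for it. Within the 6 arrays, Cdkn1a and Aen had r = -0.09 (exact permutation p = 0.846) and rho = -0.54 (exact permutation p = 0.297). The low values that both genes shared were thus those of KO array 3 and WT array 4. Of the 9 genes, 3 (Cdkn1a, Ccng1 and Aen) had these as their lowest arrays, and 1 (Trp53inp1) had them as its highest, against 2.92% and 2.58% of the 19505 unfiltered genes. Cdkn1a, Ccng1 and Aen are among the 5 tested genes of the set, and of all 9920 tested genes 2.22% had these as the lowest arrays, while Trp53inp1 was below the filter. The arrays of this pattern were noticed in these values, which makes the counts a description. The area under the curve separating positive from negative control rows was 0.894 on KO array 3, lower than on any array but WT array 3 (0.858), and 0.917 on WT array 4, where the other 5 arrays ran from 0.898 to 0.934. The part of array quality in the pattern was not tested. The mean level of the 9 GMP markers was 14.3 on KO array 3 and 14.4 on WT array 4, where the 8 arrays ran from 14.15 to 14.72. The part of cell composition in the pattern was not tested.

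**Figure D3:**
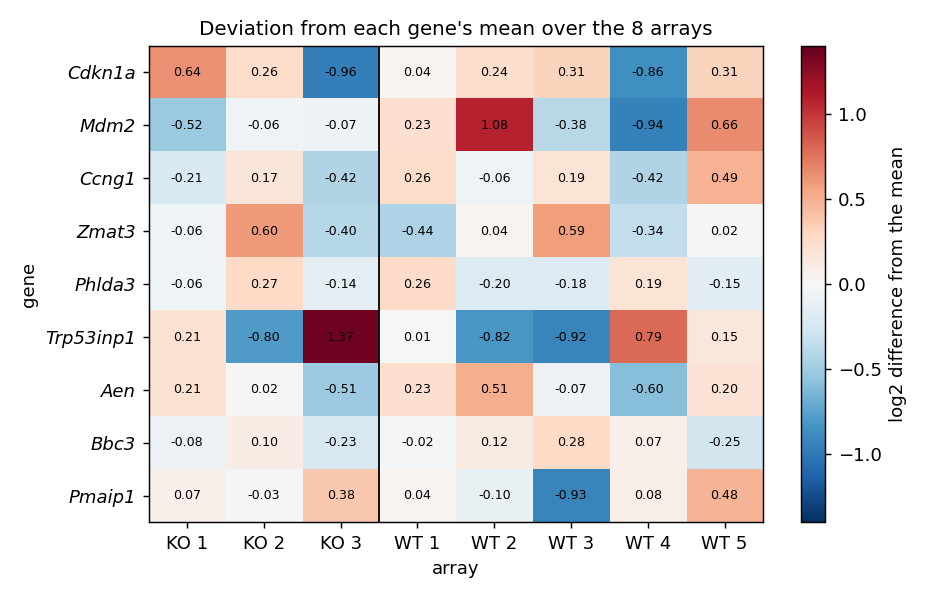
Deviation of each gene (rows) on each array (columns, KO left of the black line) from that gene's mean over the 8 arrays, in log2 units, red above and blue below the mean. In KO array 3 and WT array 4, Cdkn1a deviates by -0.96 and -0.86 while Trp53inp1 deviates by 1.37 and 0.79.

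**Figure D4:**
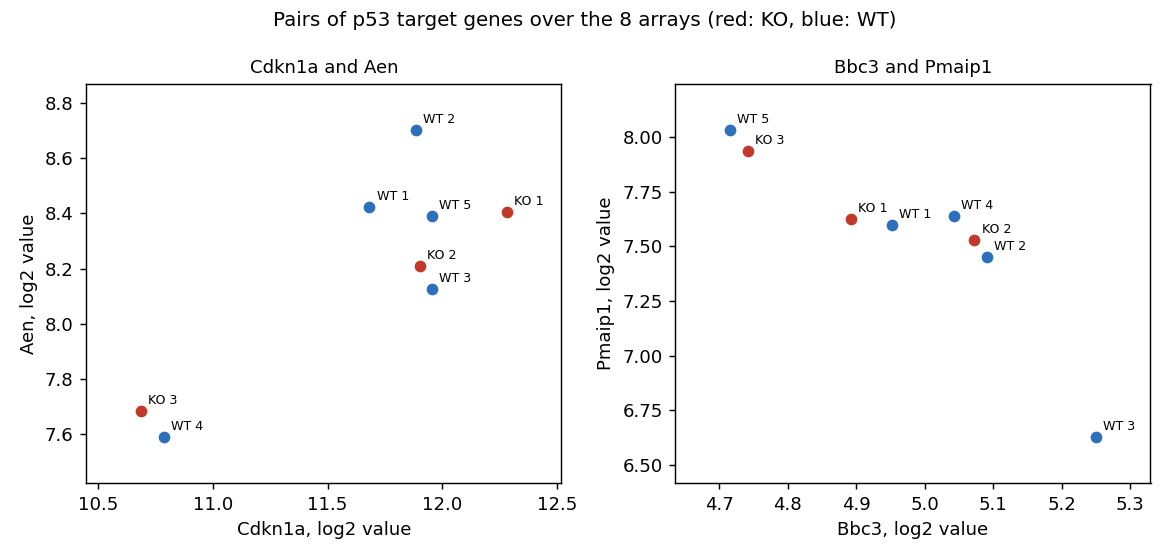
Log2 values of Cdkn1a against Aen (left) and of Bbc3 against Pmaip1 (right), with 1 point per array, KO in red and WT in blue. KO array 3 and WT array 4 sit apart at the lower left of the first panel, and the points of the second run downward, with r = -0.895.

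Other genes of the pathway were read from lists chosen for their textbook roles. Of 16 regulators of p53, 12 were tested, 0 passed limma over all genes, 8 differed by more than 0 and 4 by less, with a median difference of 0.21 that was -0.06 without WT array 3. Over all tested genes 56% of the differences were above 0, and the median was 0.04. Without WT array 3 the differences were above 0 in 5 of the 12 regulators and in 49.9% of all genes then tested. Ppm1d, encoding the WIP1 phosphatase that switches p53 signalling off, averaged 10.10 ± 0.64 (SD, n = 3) for KO against 10.81 ± 0.57 (SD, n = 5) for WT, a difference of -0.71 (limma adjusted p = 0.998), which was -0.51 without WT array 3 and -0.34 without KO array 1. Trp53bp1, a scaffold at DNA double-strand breaks, differed by -0.70, where WT array 3 held 9.82 and the other arrays 7.52 to 8.36, and by -0.34 without that array. The checkpoint kinase genes Chek1 and Chek2, whose products phosphorylate p53, differed by 0.38 and 0.39, and by 0.30 and 0.26 without WT array 3. Without KO array 2 the difference of Chek2 was 0.21.

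Of 34 further p53 targets in 4 lists, 21 were tested and 0 passed limma over all genes. Their differences were above 0 in 14, against 56% of all tested genes. The median was 0.11, against 0.04 over all tested genes, and 0.06 without WT array 3. Without that array the counts above 0 were 3 of 6 for the cell cycle list and 3 of 5 for apoptosis. They were 3 of 5 for DNA repair and 4 of 5 for metabolism and stress, against 49.9% of all genes then tested. Tigar, an enzyme that lowers fructose-2,6-bisphosphate and spares glucose for the pentose phosphate pathway, was 6.73, 6.66 and 6.70 in KO arrays 1 to 3 and 5.80, 5.52, 3.94, 6.62 and 5.77 in WT arrays 1 to 5. WT array 4 came close to the KO values. On WT arrays 1, 2 and 5 Tigar lay close to the array medians of 5.39, 5.45 and 5.45. On WT array 3 it lay below the array median of 5.51. Of the 21 only Tigar had groups without overlap, against 3.09% of all tested genes in either direction and 1.58% with KO higher. Its difference of 1.17 had a standard error of 0.51, a limma unadjusted p of 0.0465 and adjusted p of 0.998, and an exact permutation p of 0.0714. Without WT array 3 the difference was 0.77, with a standard error of 0.26, a limma unadjusted p of 0.0193 and adjusted p of 0.987. Of the genes then tested, 4.65% had an unadjusted p under 0.05 and 2.58% had KO above WT with no overlap. Sesn1, a sestrin gene that restrains mTORC1, differed by 1.03 with a standard error of 0.75 (limma adjusted p = 0.998, exact permutation p = 0.304). Its difference was 0.51 without WT array 3. The WT arrays ran from 4.37 to 8.31, with the KO arrays inside that range at 7.45 to 7.62. Gpx1, encoding an antioxidant selenoenzyme, differed by 0.09 and Dcxr, a carbonyl reductase gene, by -0.09, which were 0.05 and 0.00469 without WT array 3.

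In the list of DNA repair targets 3 of 5 tested genes had a difference above 0, against 56% of all tested genes. Rrm2b, encoding the p53-inducible subunit of ribonucleotide reductase, was 8.88, 8.87 and 7.46 in KO arrays 1 to 3 and 7.30, 7.09, 6.18, 7.76 and 8.45 in WT arrays 1 to 5. KO arrays 1 and 2 were above every WT array and KO array 3 was not. The difference was 1.05 with a standard error of 0.52 (limma adjusted p = 0.998, exact permutation p = 0.143), and 0.75 without WT array 3. The nucleotide excision repair genes Ercc5, Xpc and Ddb2 differed by 0.24, 0.11 and -0.11, and by 0.23, -0.10 and 0.12 without WT array 3. Leaving out WT array 5 gave 0.15 for Ercc5.

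Of 6 tested targets that act on the cell cycle, 4 differed by more than 0, against 56% of all tested genes. Sfn, encoding 14-3-3 sigma, differed by -0.86, with WT array 3 at 10.89 and the other arrays between 7.86 and 8.95, and by -0.38 without that array. Ckap2, a microtubule-associated gene, differed by 0.40 and the antiproliferative gene Btg2 by 0.32, which were 0.26 and 0.39 without WT array 3. For Btg2, leaving out KO array 2 gave -0.20 and leaving out KO array 1 gave 0.81. Plk3, a polo-like kinase gene, differed by -0.28, by -0.05 without WT array 3 and by 0.05 without KO array 1. Of 5 tested apoptotic targets 4 differed by more than 0, among them Apaf1, the core of the apoptosome, by 0.43, Bid, a BH3-only gene, by 0.32, and Ei24, named for its induction by etoposide, by 0.11. Pidd1, a scaffold for caspase 2, differed by -0.38. Without WT array 3 these were 0.08 for Apaf1, 0.06 for Bid, -0.28 for Ei24 and -0.60 for Pidd1. The groups of Pidd1 did not overlap without that array (limma unadjusted p = 0.0413, adjusted p = 0.987), as was the case for 5.53% of the genes then tested. Leaving out KO array 2 gave -0.16 for Pidd1.

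Genes that p21 represses through the DREAM complex, a repressor of cell cycle promoters, were read as a downstream measure. All 10 measured members were tested, and 0 passed limma over all genes. Of the 10, 6 differed by more than 0 and 4 by less, against 56% above 0 of all tested genes. The median was 0.06, or 0.07 without WT array 3. Aurkb, a mitotic kinase gene, differed by 0.36, Cdk1 by 0.21, Mybl2, an activator of late cell cycle genes, by 0.19, and Bub1, of the spindle checkpoint, by -0.23. Without WT array 3 the difference was 0.18 for Aurkb, 0.20 for Cdk1, 0.19 for Mybl2 and -0.40 for Bub1. With any 1 array left out Cdk1 lay between 0.10 and 0.33 and Mybl2 between 0.07 and 0.38, and Bub1 was at 0.04 without KO array 2.

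**Figure D5:**
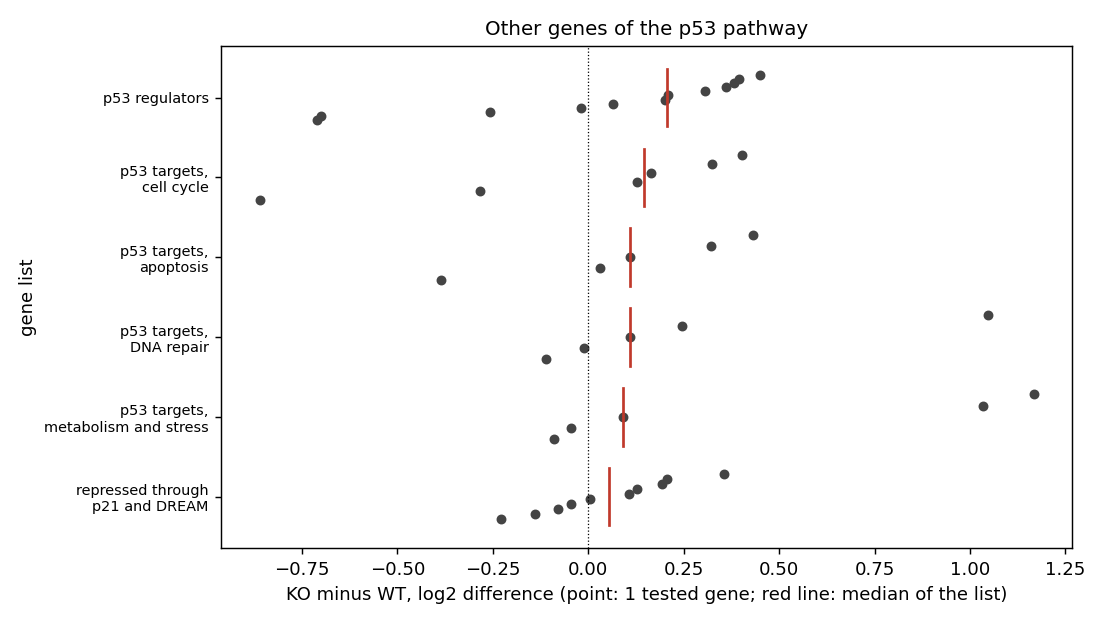
Difference KO minus WT on the log2 scale (horizontal axis) for each tested gene of 6 lists of the p53 pathway (vertical axis), with the median of each list as a red line. The points lie on both sides of 0 in every list, and the farthest to the right is Tigar at 1.17.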

How the data were processed

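The authors deposited 1 table of log2 values for 8 arrays, 28846 rows, of which 22206 were transcript rows. Per the labels' protocols, RNA from sorted cells was isolated with a kit for small samples and labelled with biotin by a standard Affymetrix protocol. How the arrays were background-corrected, normalized and summarized, and with which software and build, was not given in the sources used here. Folds assume base 2, which was read from the range of the values. Names came from the platform annotation paired with the rows.

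The row with the highest mean stood for each symbol. KO was compared with WT by limma 3.58.1 in R 4.3.3 (lmFit, eBayes, two-sided, Benjamini-Hochberg over all genes) on the deposited values, for rows above the array median on at least 3 arrays. For single genes the difference of means was also set against all splits of the arrays (exact permutation, two-sided). Pairs of genes had exact permutation tests of pairings (Python 3.11.15, scipy 1.17.1). The planned relations with Trp53 were not run. Scripts were tested on simulated data. The arrays most alike still differed by 0.574 log2 units (root mean square). The number of arrays limits the precision.

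Genes and lists were chosen with earlier results of these data known. All 9 measured genes were named, and of each pathway list the 4 tested genes with the smallest unadjusted p. KO array 3 and WT array 4 were singled out after their values were seen.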

Additional observations from a re-analysis of the deposited data

Results flagged for a closer look

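For 33 genes, the 9 p53 targets and the pathway genes named above, the highest and lowest of the 5 WT arrays were compared with the remaining 4. In 3 genes the gap from 1 array to the next exceeded 71% of the WT range, Dixon's limit for 5 samples, which chance passes in about 1 of 20 groups. The low WT array of Cdkn1a was array 4 at 10.78, with its companions at 11.68 to 11.96. For Plk3 the high array was WT array 3 at 6.59, with the remainder at 5.29 to 5.64. Dcxr also had its high value, 13.85, in WT array 3, where the remainder held 13.26 to 13.42.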

How the results depend on the processing

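In limma 0 genes passed under all 17 alternatives, and 0 of the 9 p53 targets passed under any of them. The median difference of the 9 genes, -0.03, was 0.016 with median centring, 0.0012 with array weights and between -0.19 and 0.062 with 1 array left out. Cdkn1a was at 0.016 with median centring and 0.12 with array weights, Zmat3 at -0.017 with the replicate block and Phlda3 at -0.014 with a floor at the 25th percentile. With array weights Ei24 was at -0.20, Xpc at -0.057 and Ddb2 at 0.10. With 1 array left out, the ranges that crossed 0 were -0.36 to 0.44 for Cdkn1a, -0.20 to 0.30 for Zmat3, -0.082 to 0.12 for Phlda3, -0.14 to 0.94 for Trp53inp1, -0.31 to 0.062 for Aen, -0.20 to 0.81 for Btg2, -0.48 to 0.048 for Plk3, -0.28 to 0.38 for Ei24, -0.10 to 0.20 for Xpc, -0.22 to 0.12 for Ddb2, -0.20 to 0.11 for Dcxr and -0.41 to 0.038 for Bub1. The other genes named kept their direction, and the cause was not tested. At an unadjusted p under 0.05 limma listed 282 genes, against 592 with no filter, 446 with array weights and 455 without WT array 3. The replicate number as a block called 0 genes. Deviations of same-numbered KO and WT arrays from their group means had correlations of 0.02, -0.02 and 0.14 for numbers 1 to 3. Between differently numbered arrays the correlations ran from -0.12 to 0.14. So few values cannot decide whether the numbers pair the arrays. Of the 36 pairs of genes, 0 passed without WT array 3, 0 without the 2 farthest arrays and 0 within 6 arrays, the last an alternative added after seeing the data, as was the site with up to 1 mismatch.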

Other observations

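The p53 site with up to 1 mismatch lay in the promoter windows of 29 genes, of which 13 were measured and 8 tested, Cdkn1a and Ccng1 among them. These genes were picked by sequence after the motif share was seen. Of the 8, 3 had a difference KO minus WT above 0 and 5 below, 0 had a limma adjusted p under 0.05 and 0 an unadjusted p under 0.05, and the median difference was -0.03. Rps27l, a ribosomal protein paralogue known as a p53 target, averaged 14.47 ± 0.24 (SD, n = 3) for KO against 14.45 ± 0.35 (SD, n = 5) for WT, differing by 0.01. Gtse1, encoding a protein that shuttles p53 out of the nucleus in G2, averaged 11.44 ± 0.39 (SD, n = 3) against 11.28 ± 0.30 (SD, n = 5), differing by 0.16, or by 0.06 without WT array 3. Bank1, a B cell scaffold gene, differed by -0.64, Calhm2 by 0.33, Clec4b1 by -0.05 and Mthfd1, of one-carbon metabolism, by -0.03.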
